A study of Mus musculus with 16 samples.

Results

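The heat shock and chaperone genes Hspa1a, Hspa1b, Hspa5, Hspa8, Hsp90aa1, Hspb1, Hsph1, Dnajb1, Hspd1 and Hspe1 were followed in the mouse bladder with age. They were found by matching the accession of each array probe to these 10 symbols. The match gave 14 of the 55681 probes and 9 of the 20145 genes named on the array. No probe was matched to Hspa1b, which therefore has no value here. All 14 probes were well above background on all 16 arrays, and all 9 members with a probe passed the filter on dim probes. Each has a value in every mouse except Dnajb1, whose spot in AGED female 1 carried an outlier flag. The study compared mature (MAT) and aged (AGED) C57BL/6 mice of each sex to learn how the bladder changes with ageing. The MAT group had reached 12 months and the AGED group 27 to 30 months, with 4 males and 4 females at each age. All were housed under standard conditions, and the labels name no genetic change or treatment. Total RNA from the bladder body, that is, the whole wall with its muscle, urothelium, connective tissue, vessels and nerves, was labelled and hybridised to 1 Agilent 1-colour array for each mouse.

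Molecular chaperones hold unfolded or newly made proteins and help them to fold, be transported or be degraded. The cytosolic chaperones are induced together when heat shock factor 1 binds heat shock elements, inverted repeats of the triplet GAA, in their promoters, whereas the endoplasmic reticulum has its own chaperones, induced by the unfolded protein response through the endoplasmic reticulum stress element. The bladder is a muscular organ that is stretched with each filling, and its smooth muscle is rich in small heat shock proteins, which bind actin filaments and intermediate filaments.

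The promoter sequences are shown because they say which members carry these elements. RefSeq windows on GRCm38.p6, from 250 bases before to 50 bases after the start, were found for 8 of the 10 members (11 windows), and for neither Hspa8 nor Hsp90aa1. A 2-unit heat shock element (GAANNTTC or TTCNNGAA, each its own reverse complement) was found in the windows of 6 members, namely Hspa1a, Hspa1b, Hspb1, Hsph1, Hspd1 and Hspe1, and in 15.1% of all 32851 windows. A 3-unit element (GAA, TTC, GAA or the reverse complement TTC, GAA, TTC, with 2 bases between units, so that each contains the 2-unit forms) was found in 3 members, Hsph1, Hspd1 and Hspe1, and in 0.603% of all windows. An endoplasmic reticulum stress element (CCAAT and CCACG with 9 bases between them, searched on both strands) was found in Hspa5 alone among the 8 members with a window and in 0.119% of all windows. No such match was found for Dnajb1 in its 300-base windows. In the lines below the bases before the start are given 5′ to 3′, with the 2-unit heat shock element of Hspa1a and the stress element of Hspa5 in capitals.
Hspa1a, chr17:34972157-34972406, minus strand: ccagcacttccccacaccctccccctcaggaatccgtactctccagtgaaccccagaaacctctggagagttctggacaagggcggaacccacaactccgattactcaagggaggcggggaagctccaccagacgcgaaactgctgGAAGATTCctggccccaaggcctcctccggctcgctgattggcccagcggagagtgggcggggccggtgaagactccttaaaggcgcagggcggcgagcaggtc
Hspa5, chr2:34771840-34772089, plus strand: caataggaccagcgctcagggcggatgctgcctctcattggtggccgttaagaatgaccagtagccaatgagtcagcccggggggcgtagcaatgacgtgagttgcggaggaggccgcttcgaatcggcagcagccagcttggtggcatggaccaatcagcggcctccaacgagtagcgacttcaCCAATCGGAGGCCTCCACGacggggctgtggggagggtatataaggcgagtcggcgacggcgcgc
Hspd1 and Hspe1 lie on opposite strands with their starts close together, and the stretch that holds the elements of both is shown with all overlapping heat shock element units in capitals.
Hspe1, chr1:55088048-55088077, plus strand: gccacggtccgTTCTAGAACCTTCCGGAAg
The RefSeq start of Hspe1 lies 95 and 216 bases from the starts of the Hspd1 windows. Only the Hspd1 window whose start is 216 bases away holds heat shock elements. The other Hspd1 window has no match, and the stretch shown lies downstream of its start. The windows of Hspa1a and Hspa1b differ at 4 of 300 bases (98.7% identical), and these neighbouring genes encode nearly the same protein. Whether the Hspa1a probe also reads Hspa1b RNA was not tested.

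Levels are given as the log2 processed signal minus the 75th percentile of the log2 signals of the same array, so that 0 is a probe as bright as that percentile. Every direction follows the age on the label of each array. Under these labels S100a9, a granule protein of neutrophils, was higher on the AGED male arrays (log2 change 3.08), whereas the study lists this gene as downregulated with age. The direction used here thus opposes that of the study. The sign of every change with age below would turn if the age labels were reversed, while differences in level between the sexes and correlations within groups would keep theirs. Females were on 1 slide and males on the other, with MAT mice in the first row and AGED mice in the second, so sex and slide, and age and row, cannot be told apart. The array of AGED male 1 was dim, its 75th percentile being 9.18 (log2) and those of the other 15 arrays 9.83 to 10.8. All 10 smooth muscle markers and all 10 urothelial markers tested were well above background on all 16 arrays. Of the 5 neutrophil markers tested 2 were called higher in AGED males (S100a8 and S100a9; 0.276% of all genes) and 0 in AGED females (0.179%). In males 3 of the 5 were above 0 and 2 below, with a median log2 change of 1.38. In females all 5 were above 0, with a median of 1.29. All 7 T cell markers and all 6 B and plasma cell markers were above 0 in males and below 0 in females, none of them called. The part of these cells in the chaperone levels was not tested.

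None of the 9 measured chaperone genes passed the test for a change with age in either sex. A gene was called when the Benjamini-Hochberg adjusted p of limma was under 0.05 with at least a 2-fold change, which held for 0 of 9 members in males against 0.851% of the 26781 genes tested (228 genes), and for 0 of 9 in females against 0.19% (51 genes). At an unadjusted p under 0.05 the count was still 0 of 9 in males, where 16.2% of all genes passed, and 0 of 9 in females, where 10.5% passed. For no member were the AGED values all above or all below the MAT values of the same sex, a pattern seen in 7.82% of all genes in males and in 10.8% in females. The change of the members ranged from -0.36 (Hspd1) to 0.13 (Hsp90aa1) on the log2 scale in males, with a median of 0.07 against 0.0015 over all genes. In females it ranged from -0.06 (Hspa8) to 0.30 (Hsp90aa1), with a median of 0.07 against -0.0063. All 9 confidence intervals in males and all 9 in females lay within a 2-fold change in either direction, the extremes being -0.78 for Hspd1 in males and 0.98 for Hsp90aa1 in females. A difference between the sexes in the age change passed for 0 of 9 members at an adjusted p under 0.05, against 0.149% of all genes, and the largest was that of Hspd1, 0.48 (SE 0.27, interval -0.11 to 1.06, adjusted p = 0.614). These RNA levels are of whole tissue, in which fewer cells of a type and less RNA per cell cannot be told apart.

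**Figure D1:**
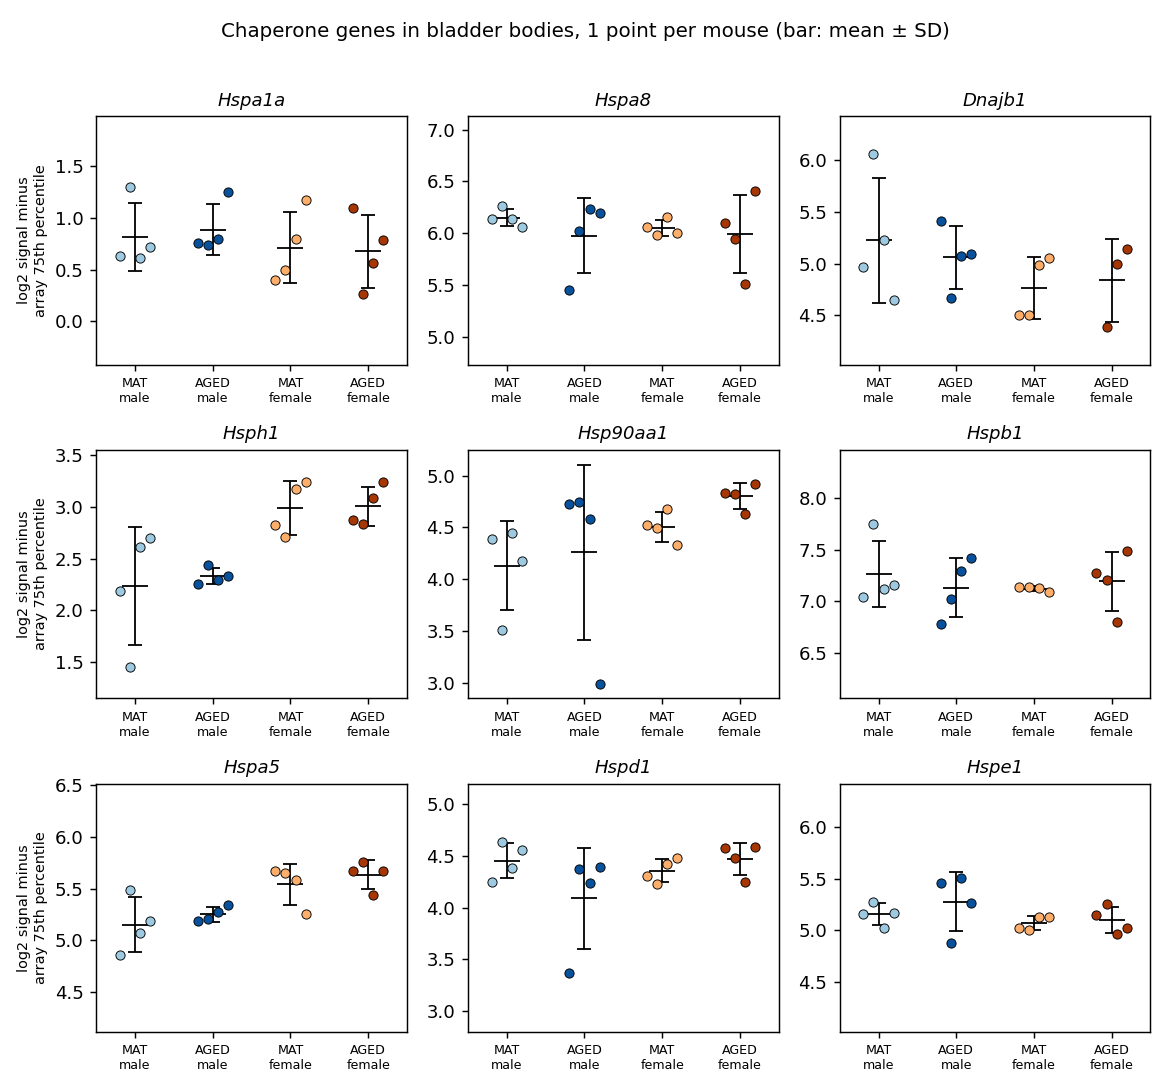
Log2 level of the 9 measured chaperone genes (log2 signal minus the 75th percentile of the array) in males and females, MAT and AGED, 4 mice each. Each point is 1 mouse and bars give the mean ± SD (Dnajb1 in AGED females, n = 3), and for every gene the AGED points overlap the MAT points of the same sex.

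**Figure D2:**
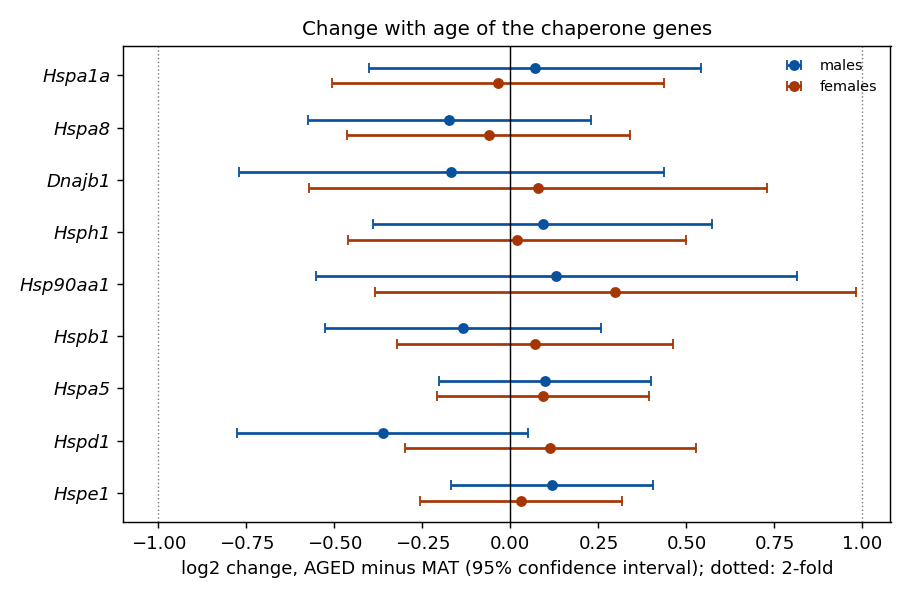
Log2 change with age (AGED minus MAT) of each chaperone gene in males and in females, with the 95% confidence interval of the limma fit. All 18 intervals include 0 and stay inside the dotted lines of a 2-fold change.

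Among the cytosolic HSP70 proteins, the stress-inducible Hspa1a refolds proteins after heat or other injury. Its log2 level was 0.63, 1.30, 0.61 and 0.72 in MAT males and 0.76, 0.73, 0.80 and 1.25 in AGED males. In MAT females it was 0.40, 0.49, 0.79 and 1.17, and in AGED females 1.10, 0.26, 0.57 and 0.79. MAT male 2 and AGED male 4 stood above the other males of their groups, and the 2 ages overlapped in both sexes. The change was 0.07 (SE 0.22, adjusted p = 0.902) in males and -0.04 (SE 0.22, adjusted p = 0.979) in females, with intervals of -0.40 to 0.54 and of -0.51 to 0.44.

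Hspa8, the constitutive HSP70 of the cytosol that folds new proteins and removes clathrin coats from vesicles, had 3 probes with different values across the mice. The brightest, used for the gene, read 6.13, 6.26, 6.14 and 6.06 in MAT males and 5.45, 6.02, 6.23 and 6.20 in AGED males. Its change in males was -0.17 (SE 0.19, adjusted p = 0.675), and the low value was that of the dim array, AGED male 1. Without that mouse the change in males was 0.0010 (adjusted p = 0.999). In females the same probe read 5.98 to 6.16 in MAT and 5.51 to 6.41 in AGED mice, a change of -0.06 (SE 0.19, adjusted p = 0.954). The second brightest probe, A_55_P2069721, read 5.23, 5.65, 5.48 and 5.46 in MAT males and 4.96, 4.37, 4.86 and 4.47 in AGED males. On this probe every AGED male was below every MAT male. In males the ages did not overlap, in either direction, for 1 of the 14 member probes and for 7.6% of all 36974 probes tested. In MAT females it read 5.43, 5.40, 5.63 and 5.47, and in AGED females 5.51, 5.83, 5.48 and 5.49, which overlapped. With each kept probe fitted on its own (36974 probes, 1.57% of them with an adjusted p under 0.05 in males and 0.984% also lower), its fall in males had an adjusted p of 0.0165 with a log2 change of -0.79 (SE 0.15), which is under 2-fold, and it was the only 1 of the 14 member probes to pass. In females 0 of the 14 passed, against 0.203% of all probes. In females its change was 0.10 (SE 0.15, adjusted p = 0.898), and the female change minus the male change was 0.89 (SE 0.21, adjusted p = 0.129). That difference passed with normexp background correction (1.42, adjusted p = 0.00329), with array weights (0.99, adjusted p = 0.0264) and without AGED male 1 (0.99, adjusted p = 0.032). The male fall passed in 25 of 28 alternative settings, between -0.70 and -1.31. It missed the threshold without MAT male 2 (adjusted p = 0.0507), without MAT male 3 (adjusted p = 0.0537) and by the methods' t-test after adjustment (0.28). Among the 28 settings, those that left out a female array could not move the male change from -0.79 and altered only its adjusted p. The dimmest probe gave 3.59 ± 0.14 (SD, n = 4) in MAT males and 3.44 ± 0.55 (SD, n = 4) in AGED males, with a change of -0.15 (SE 0.23, adjusted p = 0.784). The second brightest probe was singled out after its values were seen. The probe sequences were not used here, and which transcripts of Hspa8 or of its many processed copies each probe reads was not tested.

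**Figure D3:**
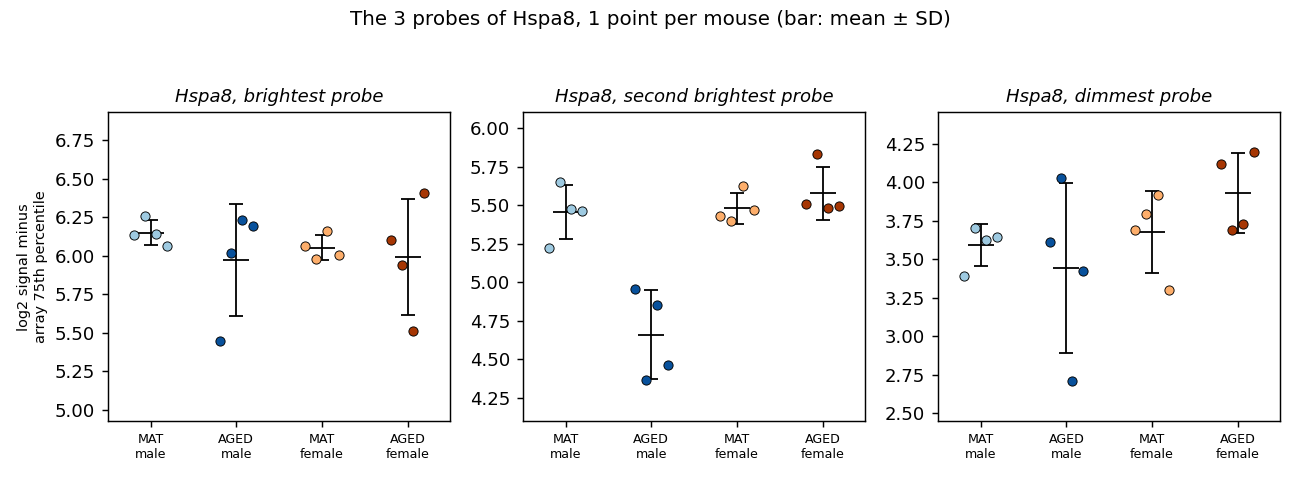
Log2 level of the 3 Hspa8 probes (log2 signal minus the 75th percentile of the array) in the 4 groups, 1 point for each mouse, with mean ± SD. On the second brightest probe the 4 AGED males lie at 4.37 to 4.96, below the 4 MAT males at 5.23 to 5.65, while on the other 2 probes the ages overlap. Of all probes tested, 7.6% do not overlap between the ages in males.

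On the probe used for each gene, the 2 measured helpers of HSP70 varied most in MAT males. Dnajb1, the J-domain protein that delivers substrates to HSP70 and starts its ATP cycle, read 4.97, 6.06, 5.23 and 4.65 in MAT males and 5.41, 4.66, 5.07 and 5.10 in AGED males. It read 4.50, 4.50, 4.98 and 5.06 in MAT females and 4.38, 4.997 and 5.14 in the 3 AGED females with a value, since the spot of AGED female 1 carried an outlier flag and was left out of the fit. The highest value was that of MAT male 2, and the ages overlapped in both sexes. The change was -0.17 (SE 0.28, adjusted p = 0.798) in males and 0.08 (SE 0.30, adjusted p = 0.965) in females. Hsph1, an HSP110 protein that acts as a nucleotide exchange factor of HSP70, read 2.19, 1.45, 2.62 and 2.70 in MAT males and 2.26, 2.44, 2.29 and 2.34 in AGED males. MAT male 2 was the lowest of all 16 mice on this probe, the brighter of 2. In females Hsph1 read 2.71 to 3.24 in MAT and 2.84 to 3.24 in AGED mice. The change was 0.09 (SE 0.23, adjusted p = 0.868) in males and 0.02 (SE 0.23, adjusted p = 0.99) in females. The other Hsph1 probe changed by -0.29 (SE 0.19, adjusted p = 0.476) in males and by -0.13 (SE 0.19, adjusted p = 0.893) in females. On that probe MAT male 2 read 1.10, the highest of all males, and MAT males had the lowest SD of any group, 0.18.

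Hsp90aa1, the inducible HSP90 of the cytosol that matures kinases and steroid receptors, read 4.39, 3.51, 4.45 and 4.17 in MAT males and 4.72, 4.74, 4.58 and 2.99 in AGED males. AGED male 4 was far below the other 3 AGED males, and those 3 were above every MAT male. In MAT females it read 4.52, 4.49, 4.68 and 4.33, and in AGED females 4.84, 4.82, 4.63 and 4.92. Only 1 AGED female lay within the range of the MAT females, and the other 3 were above it. The change was 0.13 (SE 0.32, adjusted p = 0.869) in males and 0.30 (SE 0.32, adjusted p = 0.817) in females, with the widest intervals of the 9 members, -0.55 to 0.81 and -0.39 to 0.98. Without AGED male 4 the change in males was 0.55 (adjusted p = 0.17), without MAT male 2 it was -0.08 (adjusted p = 0.939) and without AGED male 1 it was -0.02 (adjusted p = 0.981), so its direction rests on single mice.

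Hspb1, a small heat shock protein that holds unfolding proteins and stabilises actin in muscle, read 7.05, 7.74, 7.12 and 7.16 in MAT males and 6.78, 7.03, 7.30 and 7.42 in AGED males. The highest of the 16 mice was again MAT male 2. In females the 4 MAT mice were close together at 7.09 to 7.14, with an SD of 0.023, and the 4 AGED mice spread around them at 7.28, 7.21, 6.80 and 7.48, with an SD of 0.29. AGED female 3, at 6.80, was on the brightest array (75th percentile 10.82, log2). AGED female 4, at 7.48, was on the dimmest female array (9.83), and the MAT female arrays lay at 10.20 to 10.23. The part of array brightness in this spread was not tested. The change was -0.13 (SE 0.18, adjusted p = 0.748) in males and 0.07 (SE 0.18, adjusted p = 0.944) in females.

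Hspa5, the HSP70 of the endoplasmic reticulum that binds unfolded secretory proteins and holds the stress sensors inactive, read 4.86, 5.49, 5.07 and 5.19 in MAT males and 5.18, 5.20, 5.28 and 5.34 in AGED males. It read 5.67, 5.65, 5.58 and 5.25 in MAT females and 5.67, 5.76, 5.43 and 5.67 in AGED females. The ages overlapped in both sexes. The change was 0.10 (SE 0.14, adjusted p = 0.76) in males and 0.09 (SE 0.14, adjusted p = 0.889) in females.

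Hspd1 and Hspe1 form the mitochondrial chaperonin, a folding chamber and its lid. Hspd1 read 4.25, 4.63, 4.38 and 4.56 in MAT males and 3.37, 4.38, 4.23 and 4.39 in AGED males. The value of AGED male 1, the dim array, was the lowest of all 16, and the other 3 AGED males overlapped the MAT males. The change in males was -0.36 (SE 0.19, adjusted p = 0.369), the lowest adjusted p of any member in either sex, and it was -0.12 (adjusted p = 0.659) without AGED male 1. In females Hspd1 read 4.23 to 4.48 in MAT and 4.25 to 4.58 in AGED mice, a change of 0.11 (SE 0.19, adjusted p = 0.904). The brightest Hspe1 probe read 5.16, 5.28, 5.03 and 5.17 in MAT males and 5.46, 4.88, 5.50 and 5.27 in AGED males, with AGED male 1 among the highest. On the dimmest Hspe1 probe AGED male 1 read -0.48 and the other AGED males 0.22 to 0.34, so its place depended on the probe. In females the brightest Hspe1 probe read 5.03, 5.0007, 5.13 and 5.13 in MAT and 5.15, 5.26, 4.97 and 5.03 in AGED mice, which overlapped. The change of Hspe1 was 0.12 (SE 0.13, adjusted p = 0.689) in males and 0.03 (SE 0.13, adjusted p = 0.972) in females. Its other 2 probes changed by 0.12 and -0.0040 in males and by 0.09 and 0.18 in females, with adjusted p values of 0.666, 0.996, 0.893 and 0.875.

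Between the sexes, Hsph1 and Hspa5 differed most in level by their p values, a comparison made after the values were seen. The mean of Hsph1 in females exceeded that in males by 0.75 (SE 0.23) in MAT mice, with an adjusted p of 0.155, and by 0.68 (SE 0.23) in AGED mice, with an adjusted p of 0.0718. The mean of Hspa5 in females exceeded that in males by 0.39 (SE 0.14, adjusted p = 0.237) in MAT and by 0.38 (SE 0.14, adjusted p = 0.102) in AGED mice. All females were above all males for 1 of 9 members in MAT mice (Hsph1; 4.42% of all genes) and for 2 of 9 in AGED mice (Hsph1 and Hspa5; 4.77% of all genes). With both directions counted, the sexes did not overlap for 18.4% of all genes in MAT and 13.7% in AGED mice. The members were again 1 of 9 in MAT mice, below that share, and 2 of 9 in AGED mice, above it. Whether these few members depart from the shares was not tested. No member passed the adjusted threshold, which 0.22% of all genes did in MAT and 9.51% in AGED mice. Sex and slide cannot be told apart in this difference.

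The members were then compared mouse by mouse, after the mean of each group was taken away, over 36 pairs. These values come from the same arrays, so signal and scaling of an array are shared by both genes of a pair. Pearson's r was above 0 in 20 pairs. In 2 pairs the permutation test within groups (100000 draws, two-sided) gave an adjusted p under 0.05, both with Hspb1. Hspb1 and Hspa8 had r = 0.81 (16 mice, permutation p = 0.00086, adjusted 0.0185) and Spearman's rho = 0.79 (permutation p = 0.0015, adjusted 0.0547). Without the 2 mice farthest in Hspa8 r was 0.68, and it was 0.73 in males and 0.97 in females. Among females, AGED female 3, on the brightest array, was lowest in both genes, and AGED female 4, on the dimmest female array, was highest. Hspb1 and Hspa5 had r = 0.71 (16 mice, permutation p = 0.001, adjusted 0.0185) and rho = 0.66 (permutation p = 0.0036, adjusted 0.0643), with r = 0.80 without the 2 farthest mice, 0.83 in males and 0.51 in females. By Spearman's rho no pair passed (6 of 36 at an unadjusted permutation p under 0.05). The count of pairs was 0 after quantile normalization and 6 after median scaling, and it fell to 0 without MAT male 2, MAT male 3, AGED male 4 or AGED female 3. Of the pairs that did not pass, the stress-inducible Hspa1a and Dnajb1 had r = 0.73 (15 mice, permutation p = 0.0098, adjusted 0.0862). Their r was 0.56 without the 2 mice farthest in Hspa1a, 0.72 after quantile normalization and 0.73 after median scaling. It was 0.52 in the authors' log2 table, where the flagged Dnajb1 spot of AGED female 1 is not left out, so the mice differ as well. Hspa1a and the inducible Hsp90aa1 went the other way, with r = -0.57 (16 mice, permutation p = 0.021, adjusted 0.124). Hspb1 and Hspd1 had r = 0.68 and Hspa8 and Hspd1 r = 0.77, with adjusted permutation p values of 0.0622 and 0.0862. Hspd1 and Hspe1, which share their promoter region and act as 1 complex, had r = -0.25 (16 mice, permutation p = 0.663, adjusted 0.852) and rho = 0.06 (permutation p = 0.858, adjusted 0.99). AGED male 1 lay far from the other mice in this pair, r was 0.16 without it, and it was -0.40 in males and 0.58 in females.

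**Figure D4:**
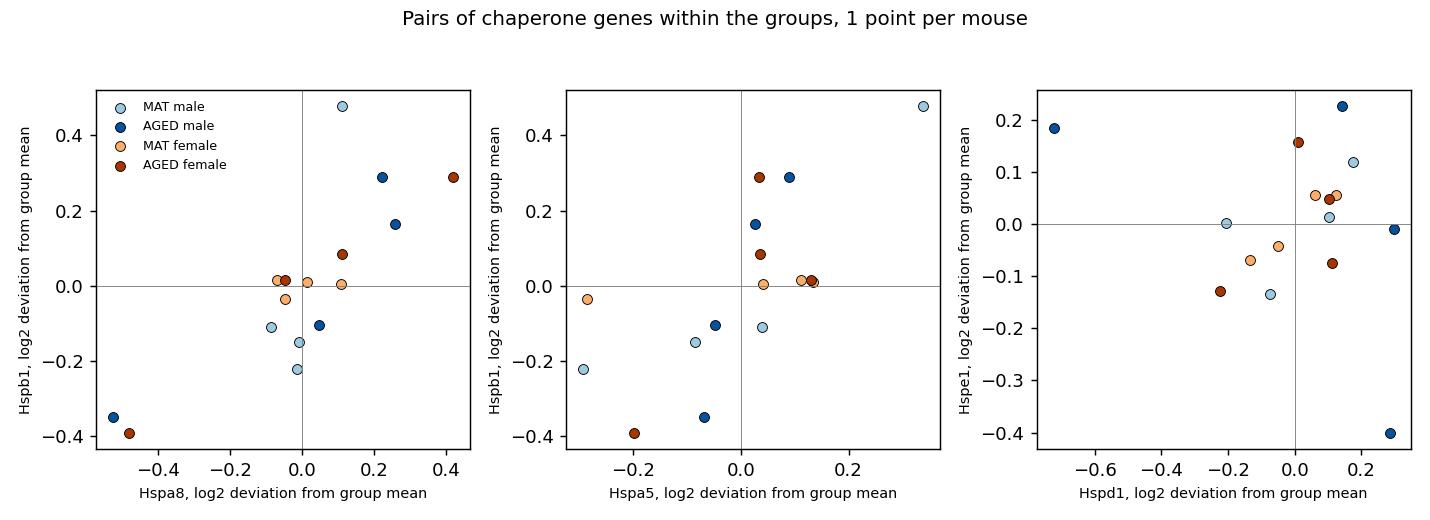
Deviation of each mouse from the mean of its group, in log2 units, for Hspa8 and Hspb1, Hspa5 and Hspb1, and Hspd1 and Hspe1, with 1 point for each of 16 mice. Points rise together in the first 2 panels (r = 0.81 and 0.71), and in the third AGED male 1 stands alone at the left.

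MAT male 2 had the highest Hspb1 and Dnajb1 of the 16 mice and also the highest mean level of immediate early genes such as Fos and Egr1, which are induced within minutes of handling or injury. Other members went the other way in this mouse. Its Hsph1 (1.45, brighter probe) was the lowest of the 16, and only AGED male 4 (2.99) was below its Hsp90aa1 of 3.51. The mean log2 level of 15 immediate early genes was 3.97 in MAT male 2, 1.22 to 2.45 in the other MAT males, 0.79 to 1.67 in AGED males, 1.29 to 2.64 in MAT females and 1.42 to 2.49 in AGED females. Of these 15 genes 14 were lower in AGED than in MAT males, with 0 called and 6 at an unadjusted limma p under 0.05 (8.36% of all genes were lower by that rule). In females 9 of the 15 were lower, with 0 called and 0 at an unadjusted p under 0.05 (10.5% of all genes either way). Over the mice, after group means were removed, this mean followed Dnajb1 with r = 0.77 (15 mice, permutation p = 0.012, adjusted over the 9 members 0.109) and rho = 0.58 (permutation p = 0.047, adjusted 0.419), and r was 0.56 without the 2 farthest mice. For the other 8 members r lay between -0.38 and 0.43, with adjusted permutation p values of 0.603 to 0.637. Among these 8, r had the same sign in both sexes for Hspa1a and Hsp90aa1 and opposite signs for the rest. It was -0.73 in males and 0.71 in females for Hsph1, 0.75 and -0.66 for Hspa5, and 0.73 and -0.53 for Hspb1. These values by sex were not tested. The part of these genes in the chaperone levels was not tested.

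The genes most like a member over the 16 arrays, by Pearson's r after group means were removed, are a description with no test, since all share the depth and scaling of each array. For Hspa5 they were Sec31a (r = 0.85), a coat protein of vesicles that leave the endoplasmic reticulum, then Prelid3b (0.83), Ly6c1 (0.83), Pik3r5 (0.82) and Tubb6 (0.81), and all 5 stayed between 0.81 and 0.85 without AGED male 1. For Hspd1 they were Mccc1os (0.97), Txnl4a (0.96), Sync (0.95), Mrpl45 (0.95) and Ormdl3 (0.95), and these fell to between 0.79 and 0.86 without AGED male 1. For Hspa1a, taken after the values were seen because Hspa1b was not measured, they were Edn1 (0.88), Oxnad1 (0.88), Ago2 (0.86), Srpk1 (0.83) and Zbtb43 (0.83).

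The wider chaperone network was followed through 99 other genes with a tested value. By the same rule 0 of 99 were called in males and 0 of 99 in females. With no fold limit 3 of 99 passed in males, against 1.72% of all genes, and 0 of 99 in females, against 0.224%. At an unadjusted limma p under 0.05 they were 11 of 99 in males, namely 6 higher in AGED mice (7.86% of all genes) and 5 lower (8.36%), and they were 3 of 99 in females. Both shares were below those of all genes given above. The AGED and MAT groups did not overlap for 7 of 99 genes in males and 10 of 99 in females, near the shares of all genes.

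The genes that passed in males were Hspa4, Lonp1 and Pdia4. Hspa4, an HSP110-type exchange factor of HSP70, read 4.53, 4.51, 4.44 and 4.62 in MAT males and 3.16, 3.33, 3.57 and 4.10 in AGED males. Every AGED male was below every MAT male, a fall of -0.99 (SE 0.18, adjusted p = 0.0151) that was just under 2-fold. In females it read 4.03, 4.16, 4.33 and 4.29 in MAT and 4.57, 4.99, 4.45 and 4.35 in AGED mice, a change of 0.39 (SE 0.18, adjusted p = 0.482), and the female change minus the male change was 1.38 (SE 0.26, adjusted p = 0.0516). In 7 of 29 other settings this difference passed, with adjusted p values over all 29 from 0.0115 to 0.46. The fall was that of its brightest probe, the other 2 probes gave -0.53 (SE 0.55, adjusted p = 0.663) and -0.09 (SE 0.25, adjusted p = 0.881) in males, and the mean of the 3 gave -0.54 (adjusted p = 0.289). The males fitted alone gave an adjusted p of 0.161. Lonp1, a protease that degrades damaged proteins of the mitochondrial matrix, read 4.36, 4.16, 4.28 and 4.47 in MAT males and 3.25, 3.62 and 3.76 in the 3 AGED males with a value. The fall was -0.77 (SE 0.15, adjusted p = 0.0206), and with the flagged spot of AGED male 4 kept it was -0.58 (adjusted p = 0.128). It also missed the threshold without MAT male 1 (adjusted p = 0.0566) and without MAT male 3 (adjusted p = 0.0557), with the replicate block (adjusted p = 0.0546), in the authors' log2 table (adjusted p = 0.128), by the methods' t-test after adjustment (0.274) and with males fitted alone (adjusted p = 0.218). The female change of Lonp1 minus the male change was 0.98 (SE 0.21, adjusted p = 0.0863), and it passed in 2 of 29 other settings, normexp correction (adjusted p = 0.00143) and array weights (adjusted p = 0.0255). Pdia4, a disulphide isomerase of the endoplasmic reticulum that was named after its values were seen, read -0.15, -0.24, -0.06 and -0.13 in MAT males and 0.54, 0.32, 0.13 and 0.63 in AGED males, a rise of 0.55 (SE 0.13, adjusted p = 0.048). It missed the threshold in 9 other settings and when any 1 of 13 of the 16 arrays was left out. In females Lonp1 read 4.01 to 4.23 in MAT and 4.12 to 4.58 in AGED mice, and Pdia4 read 0.17 to 0.47 and 0.32 to 0.70. In females the change of Lonp1 was 0.20 (SE 0.14, adjusted p = 0.664) and that of Pdia4 0.16 (SE 0.13, adjusted p = 0.741).

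**Figure D5:**
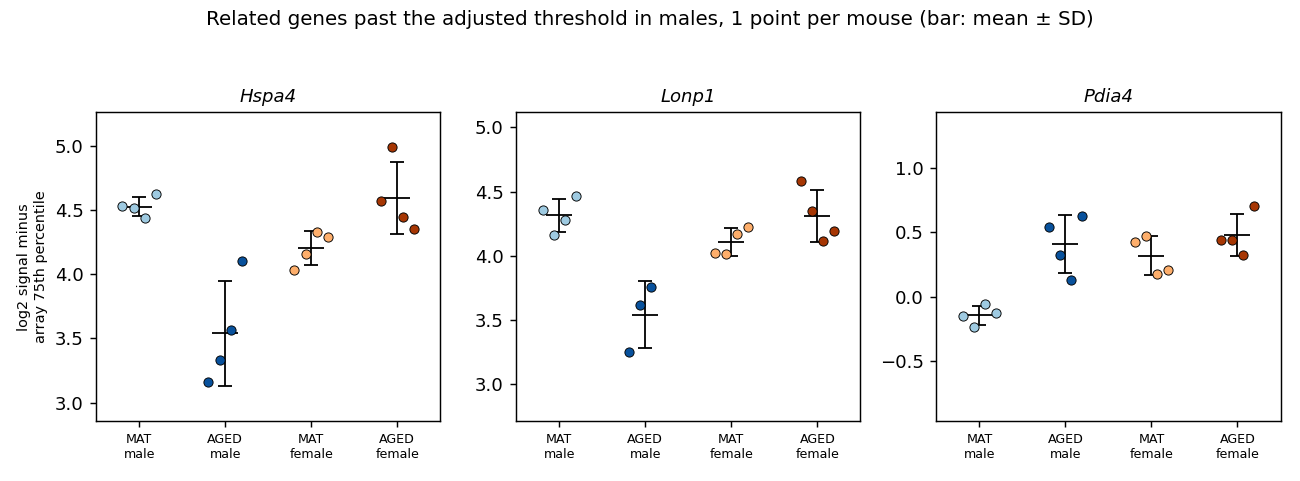
Log2 level of Hspa4, Lonp1 and Pdia4 (log2 signal minus the 75th percentile of the array) in the 4 groups, 1 point for each mouse (Lonp1 in AGED males, n = 3), with mean ± SD. In males the plotted ages do not overlap for any of the 3 genes, which are shown because they passed the test. Hspa4 lies at 4.44 to 4.62 in MAT and 3.16 to 4.10 in AGED males. For Lonp1 this rests on leaving out the flagged spot of AGED male 4, and with that spot kept the fall was -0.58. Of all genes tested, 7.82% do not overlap between the ages in males.

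By role, the transcription factors of the heat shock response were measured and did not pass the test. Hsf1, its main activator, changed by 0.15 (SE 0.18, adjusted p = 0.719) in males and by -0.20 (SE 0.18, adjusted p = 0.778) in females, and Hsf2, a related factor, by 0.39 (SE 0.23, adjusted p = 0.412) and 0.02 (SE 0.23, adjusted p = 0.986). Hsbp1, which binds and restrains heat shock factor 1, changed by 0.10 and 0.08 in males and females. Of the 6 genes in this list 4 were above 0 in each sex. Hsp90ab1, the constitutive HSP90 of the cytosol, and Hsp90b1, the HSP90 of the endoplasmic reticulum, which the unfolded protein response induces, changed by 0.0031 and 0.46 in males and by -0.09 and 0.10 in females, with adjusted p values of 0.993, 0.427, 0.845 and 0.945. Hsp90b1 read 6.32 on the dim array of AGED male 1 and 4.604 to 4.96 in the other AGED males, and its change in males was 0.08 without that array.

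Of the small heat shock proteins of muscle, Hspb6 gave -0.45 (SE 0.21, adjusted p = 0.314) in males and -0.47 (SE 0.21, adjusted p = 0.452) in females, and Cryab gave -0.09 in each sex, with adjusted p values of 0.792 and 0.908. In this list of 6 tested genes 4 were below 0 in males and 5 in females. Among the HSP70 proteins and their partners, Hspa14, which works at the ribosome, changed by 0.03 in males and 0.19 in females, and the J-domain proteins Dnajc5 and Dnaja1 by 0.12 and -0.06 in males and by 0.06 and 0.13 in females. None of these 13 J-domain genes passed the adjusted threshold in either sex, and 9 were above 0 in males and 10 in females. The exchange factors Bag1 and Bag3 changed by 0.15 and -0.08 in males and by 0.05 and 0.11 in females, Cdc37, which brings kinases to HSP90, by 0.05 and 0.08, and Fkbp5, a glucocorticoid-induced partner of HSP90, by 0.44 (SE 0.55, adjusted p = 0.722) and 1.02 (SE 0.55, adjusted p = 0.547) in males and females. Fkbp5 was the only one of the 99 genes with at least a 2-fold difference in females (2.73% of all genes), and it did not pass the test. With 1 array left out its change ranged from 0.65 (without AGED female 1) to 1.37 in females and from 0.11 to 0.76 in males.

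The subunits of the cytosolic chaperonin TRiC, which folds actin and tubulin, had 5 of 8 genes above 0 in males and 7 of 8 in females, none past the threshold. Its subunits Cct5 and Cct2 changed by 0.08 and 0.16 in males and by 0.13 and 0.11 in females. In the mitochondrial list of 12 genes Lonp1 alone passed, and Grpel1, the exchange factor of the mitochondrial HSP70, changed by -0.06 and -0.04 in males and females. In the list of 28 genes of the endoplasmic reticulum stress response Pdia4 alone passed, in males. There the transcription factors Atf4 and Xbp1 changed by 0.16 and -0.40 in males and by 0.40 and 0.21 in females, with adjusted p values of 0.667, 0.382, 0.436 and 0.805. Xbp1 read 4.73 on the array of AGED male 1 and 5.72 to 5.96 in the other AGED males, and without that array its change in males was -0.12. Ddit3, the factor of stress-induced cell death, changed by -0.35 (SE 0.13, adjusted p = 0.187) in males and by -0.18 (SE 0.13, adjusted p = 0.679) in females. The 9 measured chaperones and these lists gave 0 genes that were called at 2-fold in either sex.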

How the data were processed

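Total RNA of 16 bladder bodies was hybridised by the authors to Agilent 8x60K arrays, 1 per mouse, and extracted with Feature Extraction (9.1 per the labels, 10.7.3.1 per the file headers). The authors deposited an intensity for each spot, which is background-subtracted and detrended within the array, and a table of log2 values, which is centred on each probe and correlated with the centred scanner values of each array at 0.98 or more. For the test, log2 processed signals minus the 75th percentile of each array were used. Control spots and 399 flagged probe values were left out, and no spot was saturated. Probes above background on 4 or more arrays entered the test (36974 probes), and the brightest probe stood for its gene (26781 genes).

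The 4 groups were fitted as group means over all 16 arrays in limma 3.58.1 (R 4.3.3, 12 residual degrees of freedom), with Benjamini-Hochberg adjustment over all genes. The test was checked on simulated data. Permutation tests used numpy 2.4.6. The number of arrays limits the precision, and p-values measure the spread between mice. The methods' t-test, other scalings, background corrections, filters, models and leaving out each array were alternatives. Members and gene lists were chosen with earlier results of these data known. The text names all members, the 2 brightest genes of each related list, set regulators, and related genes that passed; each exception is stated. Probes were named through RefSeq accessions (GRCm38.p6).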

Additional observations from a re-analysis of the deposited data

Results flagged for a closer look

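In 166 sets of 4 mice (each probe or named gene, and each array measure, within a group), the lowest or highest mouse was compared with the others by its gap over the range. It lay beyond the 95% limit in 13 sets (7.83%), where chance gives about 5%. MAT male 2 was high for Hspa1a (1.30, others 0.61 to 0.72), Hspb1 (7.74, others 7.05 to 7.16) and Cryab (4.41, others 3.94 to 4.00), and low for Hsbp1 (1.95, others 3.14 to 3.28). This mouse also had the highest immediate early genes. AGED male 1 was low for Hspd1 (3.37, others 4.23 to 4.39), for the dimmest Hspe1 probe (-0.48, others 0.22 to 0.34) and for Hsbp1 (2.25, others 3.22 to 3.29), and high for Hsp90ab1 (7.06, others 6.82 to 6.85). The 75th percentile of its array was 9.18 (log2), and in the other AGED males it lay at 9.90 to 10.005. AGED male 4 was low for Hsp90aa1 (2.99, others 4.58 to 4.74) and high for Hspa1a (1.25, others 0.73 to 0.80). AGED female 2 was high for the second brightest probes of Hspa8 (5.83, others 5.48 to 5.51) and Hspe1 (4.97, others 4.57 to 4.62). The part of handling, dissection or array quality in these values was not tested.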

How the results depend on the processing

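The count of called members was 0 in each sex, and that of members whose age change differed between the sexes was 0, under every setting run on the tested probe of each gene, including an unadjusted p of 0.05 and each array left out. With each probe counted on its own it was 0 at the 2-fold rule, while the second brightest Hspa8 probe passed in males without the fold limit (-0.79), and with normexp correction it was past 2-fold as well (-1.31, adjusted p = 0.0001). For related genes called in males the count of 0 became 1 with median scaling (Hspa4), 2 with normexp correction (Hspa4 and Lonp1), 3 with no fold limit and 11 at an unadjusted p, and it ranged from 0 to 2 with 1 array left out: Hspa4 without MAT male 3 (-1.02, adjusted p = 0.0409), and Hspa4 and Ern1 without AGED male 4 (-1.17 and 1.07). In females it became 3 at an unadjusted p (Hspb6, Atf4 and Hyou1). Members that differed between the sexes were 2 in MAT mice with array weights (Hspa5 and Hsph1), and in AGED mice 1 after quantile normalization (Hspa5), 2 with the mean of probes (Hspa8 and Hsph1) and 1 with the replicate block (Hsph1), with a range of 0 to 1 with 1 array left out (1 without MAT male 2). Pairs of members numbered 0 after quantile normalization and 6 after median scaling, and 0 to 3 with 1 array left out. The replicate numbers did not pair the mice (correlations of same-numbered arrays -0.148 to 0.156, 1 of 24 over 0.1, 2 of 16 arrays closest to their own number). With the replicate block the count of called members stayed 0 in both sexes and 184 genes in males and 3 in females were called over all genes.

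Changes turned sign in these settings, none of them past the threshold. Most were near 0, but Hsf2 (0.39) and Hsf1 (0.15) in males were not. Normexp gave Hspa1a 0.038 and Hsph1 -0.051 in females, and in males Hspe1 -0.014, Hspa14 -0.28, Cryab 0.076, Hsf1 -0.53, Grpel1 0.029, Atf4 -0.089 and Hsf2 -0.33. There the median of all genes in males was 0.118. The mean of probes gave Hspa8 0.10, Hsph1 -0.056, Dnaja1 -0.088 and Grpel1 0.053 in females and Hsph1 -0.10, Dnajc5 -0.34 and Grpel1 0.045 in males. Array weights gave, in males, Hsp90aa1 -0.011, Hspb1 0.0042, Cryab 0.0068, Grpel1 0.034 and Bag3 0.0050. Quantile normalization gave Hsph1 -0.024, Hspe1 -0.046, Dnajc5 -0.031, Bag1 -0.039 and Cdc37 -0.0097 in females and Hsp90ab1 -0.062 and Cdc37 -0.0016 in males. Median scaling gave Hsph1 -4.4e-05 in females and Hspa14 -0.034, Hsp90ab1 -0.059 and Cdc37 -0.013 in males. The percentile over probes above background on all arrays gave, in females, Hsph1 -0.013, Hspe1 -0.0021 and Hsf2 -0.0083. The authors' log2 table gave Dnajb1 -0.029 in females and Hsp90ab1 -0.0011 in males, and kept flags gave Dnajb1 -0.028 in females.

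With 1 array left out, changes in males ranged from -0.053 to 0.23 for Hspa1a, -0.26 to 0.0010 for Hspa8, -0.077 to 0.55 for Hsp90aa1, -0.23 to 0.025 for Hspb1, -0.17 to 0.24 for Hsph1 and -0.36 to 0.11 for Dnajb1. In females they ranged from -0.18 to 0.12 for Hspa1a, -0.0030 to 0.16 for Hspa5, -0.20 to 0.099 for Hspa8, -0.027 to 0.20 for Hspb1, -0.073 to 0.10 for Hsph1, -0.071 to 0.31 for Dnajb1 and -0.023 to 0.072 for Hspe1. In males related genes ranged from -0.18 to 0.068 (Bag3), -0.056 to 0.31 (Cct5), -0.027 to 0.18 (Cdc37), -0.18 to 0.017 (Cryab), -0.19 to 0.095 (Dnaja1), -0.042 to 0.20 (Dnajc5), -0.21 to 0.36 (Hsbp1), -0.0015 to 0.29 (Hsf1), -0.063 to 0.048 (Hsp90ab1) and -0.089 to 0.27 (Hspa14), and in females from -0.043 to 0.13 (Bag1), -0.026 to 0.23 (Dnajc5), -0.091 to 0.020 (Grpel1) and -0.088 to 0.12 (Hsf2). The cause was not tested.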
